A study of Mus musculus with 12 samples.

Results

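The cytochrome P450 genes of the mouse were followed across 12 microarrays of intestinal tumors and normal intestine. Members were all probe sets of the MG_U74Av2 array with a single gene symbol made of Cyp and a number: 47 probe sets for 40 genes, among 10833 probe sets with a single symbol for 8251 genes. A probe set is the group of short oligonucleotides that reads 1 transcript. Another 7 probe sets match several genes, at least 1 of them a P450, and were not counted as members. All mice were males of 91 days that carried Min, a heterozygous truncating mutation of the tumor suppressor gene Apc, under which many intestinal adenomas form. The groups were 6 tumor arrays and 6 normal intestine arrays. Within each tissue, 3 arrays were Dnmt+/- and 3 were Dnmt+/+, and each of the diets #1, #2 and #3 had 1 array of either genotype. Dnmt stands for a DNA methyltransferase gene whose number the labels do not give, and the diets are known here by number only. The normal intestine thus came from Min/+ mice too, and no wild-type intestine was analysed here. Each tumor array shares a sample code with 1 normal array of the same diet and genotype. The labels do not say whether a code is 1 mouse or a pool, so the p-values below stand for the spread of these 12 samples, which may be technical.

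P450s are heme enzymes that insert an oxygen atom into their substrates. Those of the endoplasmic reticulum take electrons from P450 reductase and cytochrome b5, and those of mitochondria take them from ferredoxin. Families 1 to 3 mainly oxidise drugs, plant compounds and pollutants, and in the small intestine the enzymes of the absorptive epithelium act on what is swallowed before it reaches the liver. Family 4 and several Cyp2c and Cyp2j enzymes oxidise fatty acids such as arachidonic acid. The remaining families make or break down sterols, bile acids, steroid hormones, retinoic acid and vitamin D.

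Promoter sequences are shown for the 3 Cyp3a genes that fell in tumors and for Cyp51, the tested P450 that rose there. Each runs from 250 bases before to 50 bases after the start site in the RefSeq annotation of GRCm38.p6, is written 5′ to 3′ on the gene's own strand, and lies on the minus strand of chromosome 5. The regions are chr5:145879805-145880104 for Cyp3a11, chr5:146009569-146009868 for Cyp3a25, chr5:137921570-137921869 for Cyp3a13 and chr5:4104648-4104947 for Cyp51. Capitals mark matches, on either strand, to any of 6 motifs: TATAAA (the core promoter element so named), AGGTCA (nuclear receptor half-site), CAAAGTCCA (HNF4A), GTTAAT (HNF1 half-site), GCGTG (core of the Ahr-Arnt site) and TCACNCCAC (SREBP).
Cyp3a11: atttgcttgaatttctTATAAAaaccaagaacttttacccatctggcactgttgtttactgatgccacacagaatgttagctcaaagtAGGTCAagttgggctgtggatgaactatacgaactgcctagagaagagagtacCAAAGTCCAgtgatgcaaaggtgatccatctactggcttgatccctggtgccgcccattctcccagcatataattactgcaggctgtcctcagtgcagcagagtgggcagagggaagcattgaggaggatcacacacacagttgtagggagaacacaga
Cyp3a25: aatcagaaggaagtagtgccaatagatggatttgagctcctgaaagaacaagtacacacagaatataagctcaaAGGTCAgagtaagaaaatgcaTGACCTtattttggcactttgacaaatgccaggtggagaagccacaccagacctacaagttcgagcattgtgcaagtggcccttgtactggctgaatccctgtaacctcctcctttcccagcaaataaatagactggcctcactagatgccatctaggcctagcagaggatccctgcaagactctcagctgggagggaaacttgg
Cyp3a13: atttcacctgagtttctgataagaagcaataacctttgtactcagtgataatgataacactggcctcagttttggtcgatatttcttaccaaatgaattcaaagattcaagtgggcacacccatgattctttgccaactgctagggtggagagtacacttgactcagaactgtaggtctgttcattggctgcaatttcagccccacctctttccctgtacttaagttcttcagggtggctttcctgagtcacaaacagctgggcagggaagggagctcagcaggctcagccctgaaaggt
Cyp51: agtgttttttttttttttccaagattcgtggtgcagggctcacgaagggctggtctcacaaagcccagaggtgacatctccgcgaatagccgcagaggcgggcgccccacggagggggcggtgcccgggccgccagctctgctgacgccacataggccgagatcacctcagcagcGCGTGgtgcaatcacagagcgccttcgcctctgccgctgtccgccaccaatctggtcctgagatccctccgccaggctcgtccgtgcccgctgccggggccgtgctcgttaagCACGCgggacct
The Cyp3a11 window held 1 TATAAA (beginning at -234 from the start site), 1 AGGTCA and 1 CAAAGTCCA. In the Cyp3a25 window there were AGGTCA matches on both strands, in the Cyp51 window GCGTG matches on both strands, and in the Cyp3a13 window none of the 6 motifs. Promoters of 32 of the 40 genes were searched, without Cyp4a10, Cyp4a12b, Cyp4a14, Cyp7a1, Cyp7b1, Cyp17a1, Cyp21a1 and Cyp24a1. CAAAGTCCA stood in 4 of them (12.5%, in Cyp3a11, Cyp3a16, Cyp2c70 and Cyp8b1), against 0.475% of all 32851 promoters of the same length. For the P450 genes only the first listed window was read, also where a gene has 2, as Cyp3a25 does. The 32851 count every window, so a gene can enter more than 1 time. AGGTCA stood in 10 (31.2%, against 16.3%), TATAAA in 15 (46.9%, against 13.6%) and GCGTG in 5 (15.6%, against 32.4%). A match was counted anywhere in the window, whatever its distance from the start site. GTTAAT stood in 1, that of Cyp2d26 (3.12%, against 7.1%), and TCACNCCAC in 1, that of Cyp2b10 (3.12%, against 1.24%). The P450 promoters partly descend from shared ancestors, no test was made of these shares, and a match is a run of letters, not a bound site.

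The deposited values are linear intensities, and they were brought to 1 scale by quantile normalisation (66 control probe sets left out, 12422 normalised). The diet #1 files differ from the rest: 40.9% to 46% of the probe sets of each array sit at exactly 50, taken here as a lower limit (1 probe set, no member, is below it on all 4), and they were not scaled to a mean of 1000 as the 8 others were. Diet #1 and this format cannot be told apart. With so many values tied at 50, normalisation widens the gap between them and values just above. On the Dnmt+/- diet #1 normal array 50 became 48.9, while 50.6 (Cyp4a14) became 146 and 72.1 (Cyp2c29) became 198. Each diet holds both tissues and both genotypes in equal number. Normalised values under 44.8 were raised to it before log2 was taken (the floor below; values at the lower limit of a diet #1 file count as at the floor too), and the 40% of probe sets with the lowest means were not tested. This left 7453 probe sets, with 20 of the 47 members (19 genes). Levels below are normalised intensities, and differences are log2 differences ± SE from limma, with p adjusted by Benjamini-Hochberg over all 7453. A level in a tissue piece cannot tell fewer cells of a type from less RNA per cell.

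Between tumor and normal intestine, 11 of the 20 tested P450 probe sets were called lower in tumor at a limma adjusted p under 0.05, and 1, Cyp51, was called higher. These are 55% lower and 5% higher, beside 16.5% lower and 17% higher among all 7453 probe sets. The median difference of the 20 was -0.82, against -0.0084 over all probe sets. Of the 11 lower members, 8 were at least 2-fold lower and 10 were lower in all 6 pairs of a tumor and a normal array with the same code. Both counts were taken among called members, which the same difference had picked, and not over all probe sets. In 4 of the 20 (20%) all 6 tumor arrays lay below all 6 normal arrays, and in 1 (5%) all lay above, while 4.78% and 5.82% of all probe sets did so. The members' split was 11 and 1 with median scaling as well, and 9 and 1 on the values as deposited. Over all probe sets these scalings gave other splits, 1746 lower and 940 higher with median scaling and 824 lower and 1505 higher as deposited, and moved the median of all differences to -0.10 and 0.13.

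**Figure D1:**
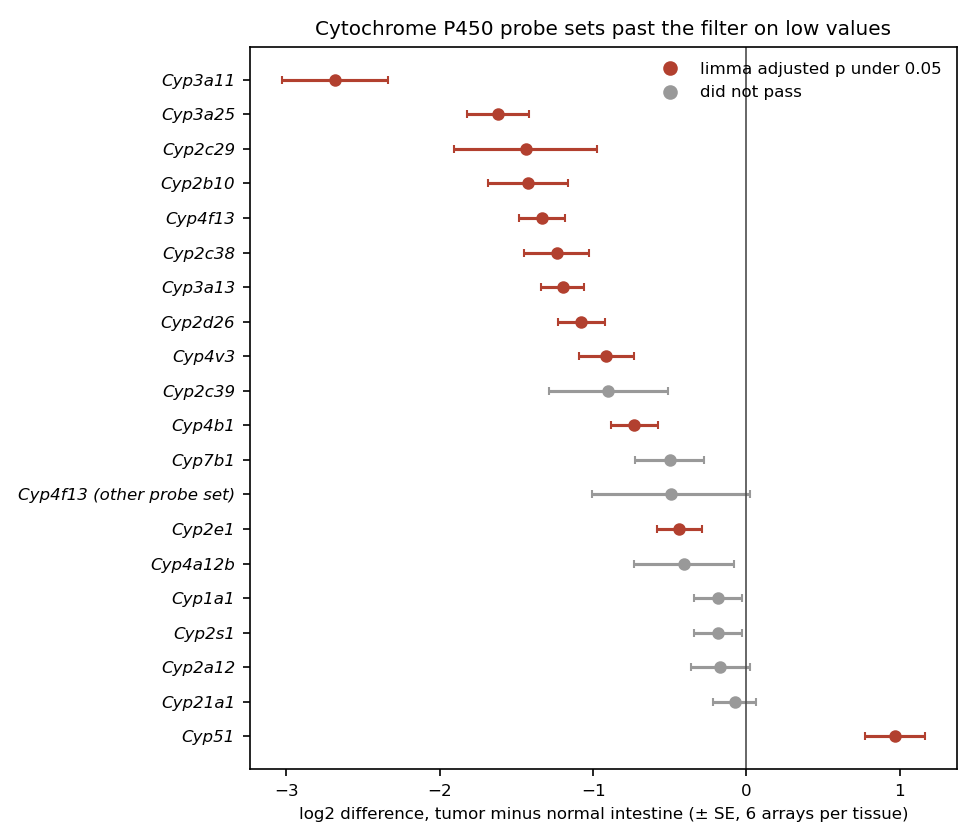
Log2 difference between tumor and normal intestine (points, with ± SE bars, 6 arrays per tissue) for the 20 cytochrome P450 probe sets past the filter on low values. Red points passed a limma adjusted p of 0.05: 11 lie left of 0, from Cyp2e1 at -0.44 to Cyp3a11 at -2.68, and Cyp51 lies right of it at 0.97.

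The 3 tested Cyp3a genes fell together. Cyp3a11, the main drug-oxidising CYP3A of the mouse and counterpart of human CYP3A4, ranged over 484, 960 and 4441 in tumors (lowest, median and highest of 6) and over 5526, 6515 and 8673 in normal intestine. The tissues did not overlap, and the highest tumor was the Dnmt+/+ array of diet #1. The difference was -2.68 ± 0.35, a 6.42-fold lower level in tumor (limma adjusted p = 0.000485). It was -1.60 within diet #1, -3.19 within diet #2 and -3.26 within diet #3, and these did not pass a test of their difference (limma adjusted p = 0.422 for tissue by diet).

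Cyp3a25, another testosterone- and drug-oxidising member of the same gene cluster, had 256, 648 and 1580 in tumors and 1276, 1972 and 2713 in normal intestine. The ranges overlapped through the same Dnmt+/+ diet #1 tumor, but each tumor lay below the normal array of its code. Its difference was -1.62 ± 0.20, or 3.08-fold lower (limma adjusted p = 0.000382). Cyp3a13, the CYP3A gene best known from mouse gut rather than liver, had 3409, 4978 and 6231 in tumors and 8088, 11519 and 13840 in normal intestine. No tumor reached the lowest normal array, and the difference was -1.20 ± 0.14, 2.30-fold lower (limma adjusted p = 0.000255). The fourth Cyp3a probe set, for Cyp3a16, a gene known from fetal and neonatal mouse liver, did not pass the filter. It was at the floor in all 6 tumors and in 2 normal arrays, and its highest values, 343 and 966, were those of the diet #1 normal arrays. Cyp3a11 and Cyp3a16 are close copies, so their probe sets may read each other's transcripts. A probe set that matches both was lower in tumor as well, at -3.30 (limma adjusted p = 0.00026).

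Of the 8 tested Cyp2 probe sets, 5 were called lower in tumor and none higher. Cyp2b10, the classic target gene of the receptor CAR (Nr1i3), had 811, 1113 and 1322 in tumors and 1522, 3111 and 4729 in normal intestine. The tissues did not overlap. The difference was -1.42 ± 0.26, 2.68-fold lower (limma adjusted p = 0.00293). Its lowest normal arrays were both those of diet #2, at 1522 and 1681. Cyp2d26, of the subfamily that includes the human drug enzyme CYP2D6, had 1816, 3208 and 4100 in tumors and 4758, 6138 and 7372 in normal intestine, again with no overlap. It was 2.11-fold lower, at -1.08 ± 0.15 (limma adjusted p = 0.000811).

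Cyp2c38, an arachidonic acid epoxygenase, had 201, 263 and 570 in tumors and 314, 724 and 1624 in normal intestine. Both diet #1 arrays were the highest of their tissue, the ranges overlapped, and all 6 pairs were lower in tumor. Its difference was -1.24 ± 0.21, 2.36-fold lower (limma adjusted p = 0.00213). Cyp2c29, another epoxygenase of arachidonic acid, had 47.4, 74.1 and 192 in tumors and 111.6, 153 and 1203 in normal intestine. The value 1203 belongs to the Dnmt+/+ diet #1 normal array and the next highest was 198, while 1 tumor was at the floor of its file. The difference was -1.44 ± 0.47 (2.71-fold, limma adjusted p = 0.0406). Its call did not survive leaving out any 1 of 9 arrays, with adjusted p between 0.0534 and 0.0948. The exceptions were the Dnmt+/- tumors of diets #2 and #3 and the Dnmt+/- normal array of diet #1.

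Cyp2e1, which oxidises ethanol and small solvents, had 231, 311 and 351 in tumors and 332, 393 and 550 in normal intestine. The difference was small, -0.44 ± 0.15 (1.36-fold, limma adjusted p = 0.0452), with 5 of 6 pairs lower. The call was lost on leaving out any 1 of 8 arrays (adjusted p between 0.0640 and 0.104), the exceptions being the Dnmt+/+ tumor of diet #1, the Dnmt+/- tumors of diets #2 and #3, and the Dnmt+/- normal array of diet #2. The other 3 tested Cyp2 probe sets did not pass. These were Cyp2c39, a retinoic acid hydroxylase, at -0.90 ± 0.39 (limma adjusted p = 0.107), Cyp2s1, a P450 of epithelia outside the liver, at -0.19 ± 0.16 (0.395), and Cyp2a12, a steroid hydroxylase, at -0.17 ± 0.19 (0.535). Without the diet #1 arrays Cyp2s1 was called lower, at -0.38 (limma adjusted p = 0.0465). Probe sets that match several Cyp2 genes were lower in tumor too: the one for Cyp2c40, Cyp2c67, Cyp2c68 and Cyp2c69 at -1.71 (limma adjusted p = 2.3e-05) and the one for Cyp2d9 and Cyp2d12 at -1.57 (5.6e-05).

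Of the 5 tested family 4 probe sets, 3 were called lower. Cyp4f13, of the subfamily whose enzymes hydroxylate the far end of leukotrienes and fatty acids, had 190, 423 and 622 in tumors and 542, 1024 and 1236 in normal intestine. Its difference was -1.33 ± 0.15, 2.52-fold lower (limma adjusted p = 0.000221). The overlap came from diet #1, whose arrays were the lowest of either tissue. The other Cyp4f13 probe set had 65.1, 137 and 234 in tumors and 44.8, 240 and 425 in normal intestine and did not pass, at -0.49 ± 0.52 (limma adjusted p = 0.496). The value 44.8 belongs to the Dnmt+/+ diet #1 normal array. Without that array this probe set was called lower too, at -1.02 (0.0243).

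Cyp4v3, the mouse counterpart of human CYP4V2, a fatty acid hydroxylase mutated in an inherited retinal dystrophy, had 5110, 7176 and 12362 in tumors and 8015, 14554 and 19829 in normal intestine. It was 1.88-fold lower, at -0.91 ± 0.18 (limma adjusted p = 0.00434), with nearly the same difference in each diet (-0.96, -0.87 and -0.91 in diets #1, #2 and #3). Cyp4b1, which hydroxylates short fatty acids and activates furans, had 723, 1530 and 1780 in tumors and 1271, 2325 and 3222 in normal intestine. It was 1.66-fold lower, at -0.73 ± 0.15 (limma adjusted p = 0.00583), and a probe set shared by Cyp4b1 and its pseudogene Cyp4b1-ps2 gave -0.74 (0.0038). For both genes the ranges overlapped and all 6 pairs were lower in tumor. Cyp4a12b, an arachidonic acid hydroxylase, did not pass, at -0.41 ± 0.33 (limma adjusted p = 0.367), with 2 tumors and 1 normal array of diet #1 at the floor.

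**Figure D2:**
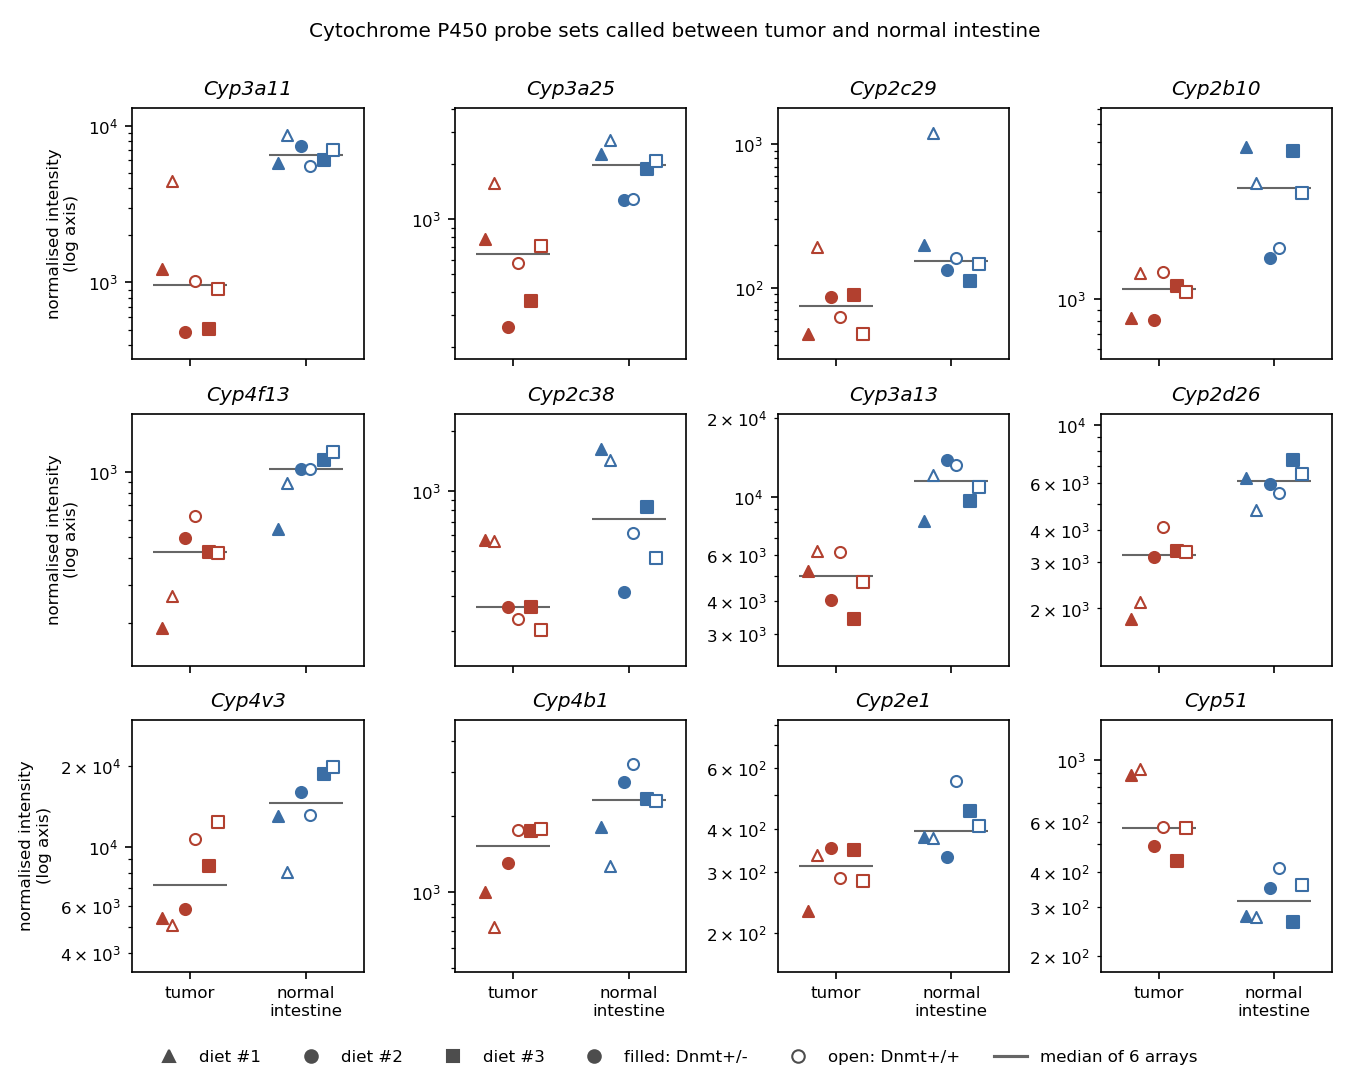
Normalised intensity (log axis) of the 12 called cytochrome P450 probe sets on each of the 6 tumor arrays (red, left) and 6 normal intestine arrays (blue, right), with the shape giving the diet, filled symbols Dnmt+/-, open symbols Dnmt+/+ and the bar the median. Cyp3a11, Cyp2b10, Cyp3a13, Cyp2d26 and Cyp51 show no overlap between the tissues, and Cyp51 is the panel in which tumors lie above.

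Cyp51, lanosterol 14-alpha-demethylase, an enzyme of cholesterol synthesis, was the tested P450 called higher in tumor. It had 437, 573 and 926 in tumors and 263, 313 and 411 in normal intestine, with no overlap and all 6 pairs higher in tumor. The difference was 0.97 ± 0.19, 1.96-fold (limma adjusted p = 0.00447). It was largest in diet #1, at 1.71, against 0.50 in diet #2 and 0.70 in diet #3, and the test of tissue by diet gave a limma adjusted p of 0.0660. Of 19 other genes of cholesterol synthesis and uptake, 15 were tested. Of these, 9 rose in tumor and 1 fell, with a median difference of 0.68, where 17% of all probe sets rose and 16.5% fell. The largest were Sqle, squalene epoxidase, at 1.47 ± 0.12 (limma adjusted p = 3.3e-05), Mvd, mevalonate decarboxylase, at 1.42 ± 0.21 (0.000986), and Lss, lanosterol synthase, which makes the substrate of Cyp51, at 1.23 ± 0.31 (0.0141). Sqle had 1850, 2586 and 2766 in tumors and 619, 851 and 1450 in normal intestine. The 1 that fell, Sc5d, acts late in the pathway and was at -0.58 ± 0.14 (limma adjusted p = 0.00964). Without the diet #1 arrays 7 rose and 1 fell, with a median of 0.41 (1143 and 1120 of all 7453 probe sets). On the values as deposited 10 rose and 0 fell (1505 and 824 of all 7453).

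The P450s of bile acids, steroid hormones, retinoic acid and vitamin D were mostly dim. Of 12 such probe sets (Cyp7, Cyp8, Cyp11, Cyp17, Cyp21, Cyp24, Cyp26 and Cyp27), 2 were tested and neither passed. Cyp7b1, the oxysterol 7-alpha-hydroxylase, had 76.5, 96.7 and 232 in tumors and 103, 114 and 342 in normal intestine, at -0.50 ± 0.23 (limma adjusted p = 0.120). Without the Dnmt+/+ tumor of diet #3 it was called lower, at -0.68 (0.0209). The other Cyp7b1 probe set was too dim for the main test and had the opposite sign with no filter, at 0.03 ± 0.11 (limma adjusted p = 0.915). Cyp21a1, steroid 21-hydroxylase, had 671, 780 and 941 in tumors and 516, 858 and 1118 in normal intestine, at -0.08 ± 0.14 (limma adjusted p = 0.708). Cyp1a1, the target gene of the aryl hydrocarbon receptor, was the tested family 1 probe set and had 50.8, 63.8 and 506 in tumors and 71.9, 86.9 and 457 in normal intestine. Its difference was -0.19 ± 0.16 (limma adjusted p = 0.394), and without the Dnmt+/- normal array of diet #1 it was called lower, at -0.35 (0.0442).

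The other 27 member probe sets did not pass the filter. Those for Cyp1a2, Cyp2b9, Cyp2j5, Cyp2j6, Cyp7a1, 1 of the 2 for Cyp1b1, 1 of the 2 for Cyp24a1 and 1 of the 2 for Cyp2d10 were at the floor on all 12 arrays. Cyp7a1 is the rate-limiting enzyme of bile acid synthesis and Cyp1a2 a liver enzyme, and both Cyp2j genes are epoxygenases. With no filter all 47 members entered the test among 12422 probe sets, and 10 were called lower and 2 higher in tumor, beside 9.43% lower and 10.1% higher among all. The added calls were Cyp1b1 and Cyp4a14. Cyp1b1, which oxidises estradiol and polycyclic hydrocarbons, had 47.4, 164 and 216 in tumors and 31.1, 58.0 and 97.7 in normal intestine on its other probe set. It was higher by 1.22 ± 0.32 (limma adjusted p = 0.0284), with 5 of 6 pairs higher and 1 tumor and 3 normal arrays at the floor. Cyp4a14, a fatty acid hydroxylase and target gene of PPAR-alpha, had 22.3, 53.1 and 60.4 in tumors and 56.6, 93.3 and 167 in normal intestine. It was at -0.88 ± 0.25 (limma adjusted p = 0.0403), lower in all 6 pairs, with 3 tumors at the floor. The difference was -1.76 in diet #1, where the deposited values were 50 in both tumors and 50.6 and 74.7 in the normal arrays. It was -0.63 in diet #2 and -0.25 in diet #3. Cyp2c29 and Cyp2e1 were not called in that test (0.0789 and 0.0676). The remaining 17 of the 27 include Cyp2b13, Cyp2b19, Cyp2c70, Cyp2d9, Cyp2f2, Cyp4a10, Cyp8b1, Cyp26a1 and both probe sets of Cyp17a1, and none of the 17 had a median over 79.4 in either tissue.

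Many genes that serve P450s also fell. The list of redox partners, heme synthesis and epoxide hydrolases holds 18 genes, of which 15 were tested: 10 fell in tumor and none rose, with a median difference of -0.63, where 16.5% of all probe sets fell. Ephx1, microsomal epoxide hydrolase, had 43.1, 48.6 and 87.4 in tumors and 48.9, 400 and 878 in normal intestine, at -2.49 ± 0.57 (limma adjusted p = 0.00913, with 3 of its 12 arrays at the floor). Ephx2, soluble epoxide hydrolase, which hydrolyses the epoxides of arachidonic acid, had 467, 745 and 1248 in tumors and 2604, 3864 and 4480 in normal intestine. It was 4.77-fold lower, at -2.26 ± 0.18 (limma adjusted p = 3.7e-05). Cyb5r3, cytochrome b5 reductase, was at -1.27 ± 0.11 (limma adjusted p = 6.6e-05). P450 reductase itself (Por) was not analysed here. Alas1, which begins heme synthesis, did not pass, at 0.04 ± 0.12 (limma adjusted p = 0.799). On the values as deposited Hmox1, which breaks heme down, was called higher, and without the diet #2 arrays Ephx1 and Alad did not pass.

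Of 31 transcription factors known to control P450 genes, 20 were tested: 7 fell in tumor and none rose, with a median difference of -0.28. Among all probe sets 16.5% fell and 17% rose. With median scaling 9 of 21 fell (1746 of all 7453 probe sets), with a median of -0.36. On the values as deposited 5 of 20 fell, without Ppara and Pparg (824 of all 7453), with a median of -0.09. Without the diet #2 arrays 5 of 19 fell (714 of all 7453). Vdr, the vitamin D receptor, had 357, 474 and 607 in tumors and 1190, 1301 and 2091 in normal intestine, at -1.56 ± 0.20 (limma adjusted p = 0.000423). Hnf4g, a close relative of Hnf4a in the intestine, was at -1.28 ± 0.16 (0.000401). Nr1i3, the receptor CAR, had 429, 535 and 869 in tumors and 886, 1123 and 1533 in normal intestine, at -0.97 ± 0.10 (limma adjusted p = 0.000152). None of these 3 overlapped between the tissues, and 4.78% of all probe sets lay lower in tumor with no overlap. The 3 were named as the largest calls of the list, so they were picked by this same difference. Nr1i2, the receptor PXR that induces Cyp3a11, did not pass, at -0.66 ± 0.28 (limma adjusted p = 0.104). Ahr and Hnf4a did not pass either, at -0.10 ± 0.11 (0.529) and 0.29 ± 0.27 (0.451).

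**Figure D3:**
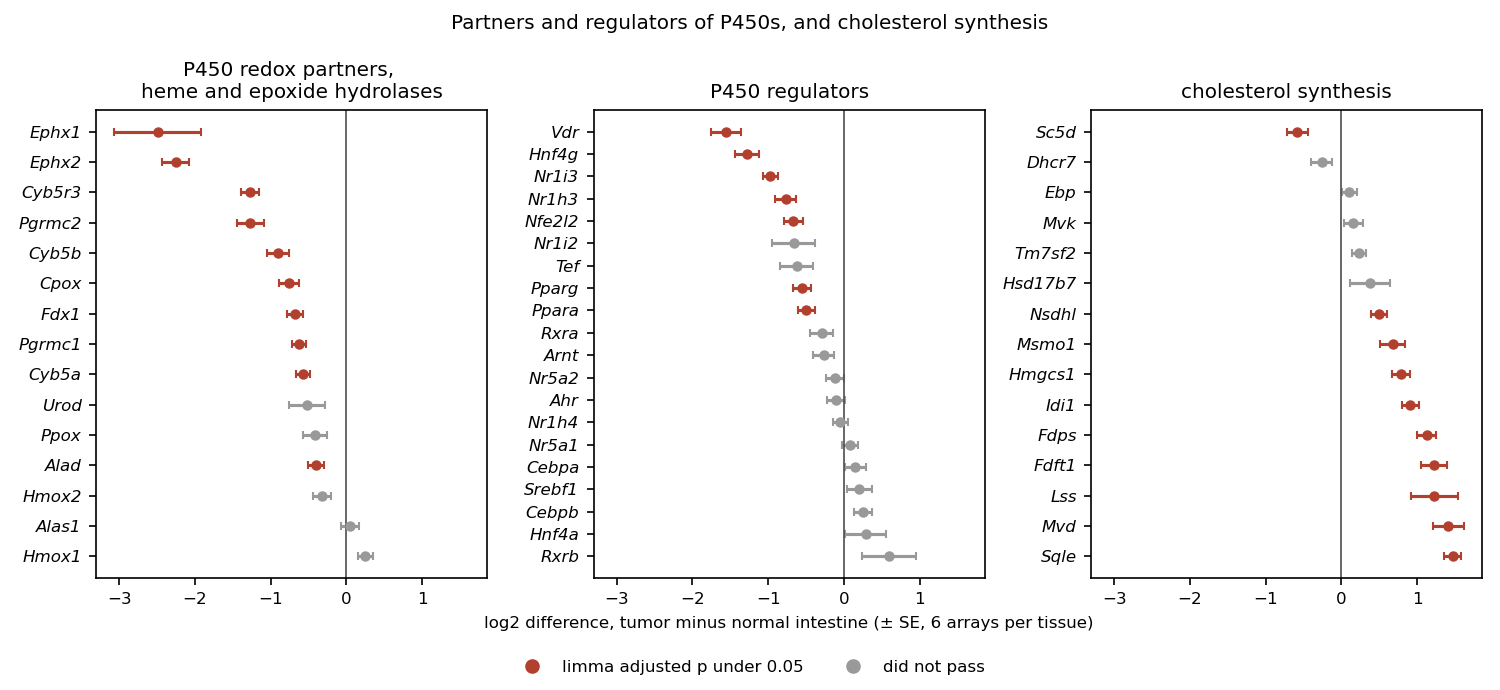
Log2 difference between tumor and normal intestine (points, with ± SE bars, 6 arrays per tissue) for the tested genes of 3 lists: partners of P450s with heme synthesis and epoxide hydrolases, regulators, and cholesterol synthesis. Red points passed a limma adjusted p of 0.05; 10, 7 and 1 of them lie left of 0 in the 3 lists, and right of 0 there are 9, all in cholesterol synthesis.

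Marker genes of the cells in these pieces were read beside the P450s, and their part in the differences was not tested. Over all 7453 probe sets 16.5% fell and 17% rose in tumor, and with median scaling 1746 fell and 940 rose. Of 13 tested absorptive enterocyte markers, 5 fell and 2 rose in tumor (9 fell and 1 rose with median scaling), and their summed intensity ran from 104898 to 134432 in tumors and from 104893 to 168302 in normal intestine. The lowest normal sums, up to 112792, were those of diet #2, and the other 4 normal arrays began at 149974. The diet #2 normal arrays also carried exocrine pancreas markers, with sums of 213479 to 232191 against at most 26982 on any other array, none of them called between the tissues. Of these markers Zg16 alone had 20931 or more on each of the 12 arrays, and it made up most of the sum on each other array. Without the diet #2 arrays 9 of 23 tested P450 probe sets were lower and 1 was higher, with 714 and 725 of all 7453. Hepatocyte markers were mostly too dim to test (3 of 15), and 2 of the 3 fell. Proliferation markers rose (7 of 8), as did mast cell markers (6 of 6, with sums of 8511 to 30113 in tumors and 848 to 1225 in normal intestine) and fibroblast markers (5 of 8). Of the other lists, adipocyte markers fell in 4 of 5, T and NK cell markers in 3 of 5, markers of steroid-producing cells in 2 of 4, and B and plasma cell and smooth muscle markers in 1 of 5 and 1 of 7, with none higher. Of 5 macrophage and myeloid markers 2 fell and 2 rose.

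No member passed the comparison of Dnmt+/- with Dnmt+/+ arrays, where 1 of 7453 probe sets (0.0134%) did. At an unadjusted p under 0.05 there were 3 of 20 members and 497 of all probe sets. The 3 were the tested Cyp3a genes, all with lower estimates in Dnmt+/-. Cyp3a25 was at -0.60 ± 0.17 (limma adjusted p = 0.719). In tumors it had 776, 256 and 355 in Dnmt+/- and 1580, 579 and 717 in Dnmt+/+ (diets #1, #2 and #3), and in normal intestine 2284, 1276 and 1871 in Dnmt+/- and 2713, 1284 and 2072 in Dnmt+/+. The Dnmt+/- array was the lower one in all 6 comparisons within a diet and tissue, which held for 163 of all tested probe sets (2.19%).

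Cyp3a11 was at -0.69 ± 0.31 by genotype (limma adjusted p = 0.719). Tumors had 1223, 484 and 507 in Dnmt+/- and 4441, 1018 and 902 in Dnmt+/+, and normal intestine had 5743, 7372 and 6017 in Dnmt+/- and 8673, 5526 and 7012 in Dnmt+/+. The Dnmt+/- array was lower in 5 of 6 comparisons, the exception being normal intestine of diet #2. Cyp3a13, at -0.34 ± 0.12 (limma adjusted p = 0.719), had the same exception. Its tumors had 5217, 4030 and 3409 in Dnmt+/- and 6231, 6146 and 4740 in Dnmt+/+. The test of tissue by genotype called no member and none of the 7453 probe sets (0%, with 171 at an unadjusted p under 0.05, 2 of them members). The smallest p among members was that of Cyp3a25, at -0.94 ± 0.28, followed by Cyp4v3 at -0.74 ± 0.32 and Cyp3a11 at -1.12 ± 0.65 (limma adjusted p = 1 for each).

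**Figure D4:**
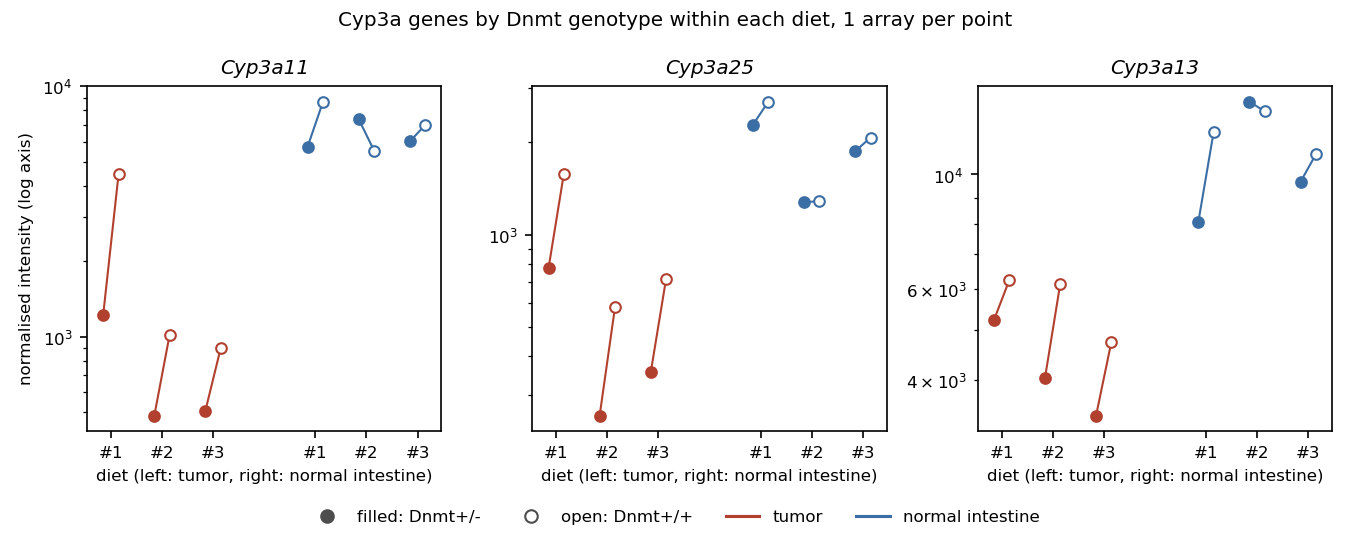
Normalised intensity (log axis) of 3 Cyp3a genes for Dnmt+/- (filled) and Dnmt+/+ (open) arrays of the same diet, joined by a line, in tumors (red, left) and normal intestine (blue, right), with 1 array per point. In tumors the Dnmt+/- array is the lower one in each diet for all 3 genes, and no member passed the genotype test after adjustment. These genes had the smallest p of the tested members in that test, and no share over all probe sets was taken for tumors alone.

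Diet #3 against diet #2 called no member of 20, while 676 probe sets (9.07%) were called. That count ran from 195 to 1059 on leaving out 1 array, and moved by over 1.5 times without either diet #2 tumor, without any 1 of the 4 normal arrays of diets #2 and #3, and without the Dnmt+/+ diet #1 tumor. It was 330 with no replicate block and 55 on the values as deposited. The 4 members with an unadjusted p under 0.05 were Cyp21a1 at -0.46 ± 0.16 (limma adjusted p = 0.101), Cyp3a25 at 0.51 ± 0.21 (0.172), Cyp3a13 at -0.35 ± 0.15 (0.172) and Cyp2b10 at 0.65 ± 0.28 (0.185). With the diet #1 arrays left out of the normalisation and the fit, 4 of 17 members were called, all lower in diet #3, beside 22.8% of all probe sets called and 10.6% lower. They were Cyp21a1 at -0.47 ± 0.09 (limma adjusted p = 0.0147), Cyp4a12b at -0.55 ± 0.12 (0.0234), Cyp2c39 at -0.48 ± 0.12 (0.0295) and Cyp3a13 at -0.35 ± 0.10 (0.0443). The pancreas markers on the diet #2 normal arrays move with this comparison, and their part in it was not tested.

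Diet #1 against the mean of diets #2 and #3 called 6 members lower and 6 higher (30% each), beside 35.3% lower and 25.1% higher of all probe sets. Cyp1a1 differed most: it had 506 and 452 in the diet #1 tumors against 50.8 to 65.5 in the other tumors, and 338 and 457 in the diet #1 normal arrays against 71.9 to 97.3 in the others. The groups did not overlap, and the difference was 2.67 ± 0.15 (6.36-fold, limma adjusted p = 6.06e-07). A second Cyp1a1 probe set, too dim to be tested, showed no such rise. It was at the lower limit of the file on each diet #1 array and at 30.4 to 82.0 on the arrays of diets #2 and #3. The others called higher were Cyp2c38, Cyp2a12, Cyp7b1, Cyp3a25 and Cyp3a11, and those called lower were Cyp4a12b, Cyp2c39, Cyp4f13 (its called probe set), Cyp4b1, Cyp4v3 and Cyp2d26, at -2.27 to -0.50. Cyp3a11, at 0.95 (limma adjusted p = 0.0297), lost its call in normal intestine alone, where it was at 0.13 (0.703), with no replicate block (0.0521) and with no filter (0.0769). It lost it too on leaving out the Dnmt+/+ diet #1 tumor, which brought it to 0.48 (0.0755), the Dnmt+/- diet #1 tumor (0.0551) or the Dnmt+/- diet #2 tumor (0.0520). Cyp2d26 lost its call without the Dnmt+/- diet #1 tumor (-0.39, limma adjusted p = 0.0561) and in normal intestine alone (-0.21, 0.298). On the values as deposited 5 of the 6 higher ones had the opposite sign, from -0.72 for Cyp3a11 to -0.13 for Cyp2c38, and Cyp1a1 did not pass the filter. With that scaling 6809 of all 7453 probe sets were called lower in diet #1. The deposited diet #1 arrays have means of 306 to 403, against 1000 on the others.

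The test of tissue by diet called 1 of 20 members, beside 100 of all probe sets (1.34%). It was Cyp2c39 (limma adjusted p = 0.00303). Its tumors had 47.4 and 43.1 in diet #1, 572 and 519 in diet #2, and 507 and 446 in diet #3, and its normal arrays had 260 and 266, 718 and 693, and 377 and 466 in the same order (Dnmt+/- before Dnmt+/+). Both diet #1 tumor values were at the lower limit of their files. No member was called in this test without the diet #1 arrays, nor with median scaling of all arrays.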

How the data were processed

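RNA of 6 tumors and 6 normal intestine samples was read on Affymetrix MG_U74Av2 arrays of 1 colour. The deposited intensity values are linear, with 1 value for each of 12488 probe sets (probe summary software: not given in the sources used here). Precision is limited by the number of arrays. Gene symbols came from the platform annotation, and a RefSeq name was found through the Entrez ID of all 40 P450 genes.

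After quantile normalisation, flooring at the 20th percentile (44.8) and log2, the 40% of probe sets with the lowest means were dropped. The tissue fit used limma 3.58.1 (R 4.3.3) on all 12 arrays with terms for tissue, diet and genotype. For genotype, for diet and for each interaction, arrays of a code formed a random block (duplicateCorrelation, -0.151 for genotype and diet). A block correlation below 0 tends to narrow the SEs of genotype and diet differences, and so to lower their p-values, against a fit with no block. Benjamini-Hochberg adjustment ran over all 7453 probe sets, with a threshold of 0.05. Gene lists used the brightest probe set of a gene. The tissue and genotype fits were tested on simulated data with independent errors, and the diet and interaction fits were not.

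Whether arrays of a code come from the same animals is not given in the labels. The fit with the code as a fixed block was an alternative. No arrays of a tissue were duplicates (highest correlation 0.981). Named genes were every P450 past the threshold in any comparison, probe sets of a gene that disagreed, the 3 of smallest p where none passed, and the 3 largest calls of each list. Further genes named were picked with their values known. The members and lists were chosen with earlier results of these data known. Alternatives were other scalings, floors, filters and variance models, the replicate block, leaving out each array or diet, and single diets or tissues.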

Additional observations from a re-analysis of the deposited data

Results flagged for a closer look

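In groups of 6 arrays, 4 of the 40 combinations of a tested P450 probe set and a tissue (10%) had 1 array far from the others on the log2 scale, as did 7.62% of such combinations over all tested probe sets. Chance gives about 1 in 20 where the 6 arrays are alike, and here they span 3 diets; over all probe sets the distant array was of diet #1 in 83.4%. All 4 were the Dnmt+/+ normal intestine array of diet #1. For Cyp2c29 it was the highest, with 1203 against 198 for the next array, a gap of 0.759 of the group's log2 range. For the Cyp4f13 probe set that was not called between the tissues it was the lowest, with 44.8 against 213 (0.694 of the log2 range), and the same array was lowest for Cyp4a12b, with 44.8 against 201 (0.634 of it), and for Cyp2s1, with 461 against 720 (0.649 of it). The values of 44.8 are the lower limit of that file.

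The tumor against normal difference of Cyp2c39 differed between diets (limma adjusted p = 0.00303), with both diet #1 tumors at the lower limit of their files.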

How the results depend on the processing

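Of the 20 tested P450 probe sets, 9 to 11 were called lower and 1 higher in tumor on leaving out any 1 array. Over all 7453 probe sets 991 to 1213 were lower and 1038 to 1236 higher. With the sample code as a replicate block 10 members were lower and 1 higher, beside 1167 and 1156 of all 7453. Cyp2e1 (limma adjusted p = 0.0556) was the P450 call that the block ended, and it ended no other among the members in this comparison. Arrays of 1 code deviated alike from their tissue means (r of 0.477 to 0.685), and 10 of 12 arrays correlated best with their own code, but a code shares diet and genotype. With these removed r was -0.555 to -0.375. With 2 codes per diet, removing diet and genotype itself pushes this r below 0. It therefore cannot tell whether codes pair samples. With no filter 2 were higher. Single diets have 4 arrays. Diet #1 alone called 0 members lower and 0 higher (4 and 44 of all 7451 probe sets), with Cyp3a11 still at -1.61 and Cyp2b10 at -1.85. Diet #2 alone called 6 lower and 1 higher (579 and 647 of 7453), and diet #3 alone 7 lower and 0 higher (309 and 327). The 1 higher in diet #2 was another member than Cyp51. Cyp51 lost its call in each single diet (limma adjusted p = 0.0778, 0.0828 and 0.0774 in diets #1, #2 and #3). Without an array the genotype and tissue by genotype tests called 0 members, diet #3 against #2 called 0 to 1 lower, diet #1 called 6 lower and 5 to 7 higher, and tissue by diet called 1 to 2. Over all 7453 probe sets the last 3 tests then called 83 to 480 lower, 2406 to 2686 lower and 1708 to 1932 higher, and 52 to 377. Without the diet #1 arrays diet #3 against #2 called 4 lower. For diet #1 against the others, the values as deposited gave 14 of 19 members lower and 0 higher, where 6809 and 148 of 7453 probe sets were. Leaving out the lowest 60% gave 3 of 14 members higher (1285 of 4969 over all), and normal intestine alone gave 2 of 21 lower (1480 of 7453). As deposited, the diet #1 differences of Cyp2c38 (-0.13), Cyp2a12 (-0.33), Cyp3a25 (-0.61), Cyp7b1 (-0.33) and Cyp3a11 (-0.72) turned negative; those arrays have lower means. Tissue by diet called 0 members with median scaling, 0 without the diet #1 arrays and 3 with no filter (Cyp2c39, Cyp3a16 and Cyp51). Over all probe sets these settings called 105 of 7453, 37 of 7453 and 269 of 12422. Other causes were not tested. Without the diet #2 arrays 1439 of all probe sets were called between the tissues, against 2497 with them. The floor limits dim members: a fold with arrays at the floor depends on where it is set.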

Other observations

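Among P450s too dim for the main test, Cyp11a1, which cuts the side chain of cholesterol to begin steroid synthesis, had higher values in tumor in 5 of 6 pairs and lower in 0. It had 294 and 265 in the diet #1 tumors and 173 and 184 in the diet #1 normal arrays, with all 8 arrays of the other diets at 65.0 or less. Its difference with no filter was 0.34 ± 0.12 (limma adjusted p = 0.0797). Cyp27b1, which activates vitamin D, had 43.1, 62.4 and 98.1 in tumors and 32.6, 51.3 and 65.0 in normal intestine (lowest, median and highest of 6), at 0.28 ± 0.16 (limma adjusted p = 0.292). Both values are differences that did not pass.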
